A study of Homo sapiens with 12 samples.

Results

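The ADAM and ADAMTS proteases examined here are 9 genes (ADAM12, ADAM19, ADAMTS1, ADAMTS2, ADAMTS3, ADAMTS5, ADAMTS6, ADAMTS9 and ADAMTS12) of 19775 genes on the array. They were chosen by name, as the probe sets annotated to only 1 of these genes, which gave 26 probe sets of 41091 that name a single gene. No probe set named a member together with another gene. RNA came from IMR-90, human lung fibroblasts of 1 established line with a limited number of divisions in culture, and was hybridised to 12 Affymetrix arrays, 3 for each of 4 groups. At 20% oxygen these were young cells, at population doubling 30, and senescent cells, at doubling 48. At 3% oxygen they were young cells, also at doubling 30, and old cells that were not senescent, at doubling 53. All groups grew as monolayers of this 1 line in the same serum-containing medium, without any added agent. Each oxygen level had its own incubator, so oxygen and incubator cannot be told apart. The labels call the replicates biological but do not say whether they were separate cultures, so the p-values measure the spread between these arrays, which may be technical.

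ADAM and ADAMTS proteins are metalloproteases with a zinc ion in the active site. ADAM12 and ADAM19 sit in the cell membrane and release growth factors and other proteins from the cell surface. The ADAMTS enzymes are secreted, bind to the matrix through thrombospondin repeats, and cut proteoglycans such as versican and aggrecan (ADAMTS1, ADAMTS5, ADAMTS9), procollagens (ADAMTS2, ADAMTS3) or other matrix and secreted proteins (ADAMTS6, ADAMTS12). Fibroblasts are a main source of several of them, and tissue inhibitors of metalloproteinases such as TIMP3 hold them in check.

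The promoters shown are those of ADAM12, ADAMTS3, ADAMTS6 and ADAMTS12, the 4 members called in the comparison of senescence at 20% oxygen. RefSeq promoter windows (GRCh38.p14) matched 6 of the 9 members; ADAMTS1, ADAMTS5 and ADAMTS9 had no entry. Each line gives the 250 bases before the annotated start, 5′ to 3′ on the gene's strand, which is the minus strand for all 4. Capitals mark letters that match a hypoxia-inducible factor core (ACGTG or GCGTG), an AP-1 site (TGANTCA) or a SMAD box (CAGAC), on either strand. The windows lie at chr10:126388478-126388727 for ADAM12, chr4:72569222-72569471 for ADAMTS3, chr5:65481921-65482170 for ADAMTS6 and chr5:33891991-33892240 for ADAMTS12.
ADAM12: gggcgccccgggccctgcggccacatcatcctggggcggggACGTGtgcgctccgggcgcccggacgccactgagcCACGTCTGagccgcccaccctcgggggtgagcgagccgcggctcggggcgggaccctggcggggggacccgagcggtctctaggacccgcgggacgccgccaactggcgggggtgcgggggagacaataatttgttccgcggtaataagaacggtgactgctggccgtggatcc
ADAMTS3: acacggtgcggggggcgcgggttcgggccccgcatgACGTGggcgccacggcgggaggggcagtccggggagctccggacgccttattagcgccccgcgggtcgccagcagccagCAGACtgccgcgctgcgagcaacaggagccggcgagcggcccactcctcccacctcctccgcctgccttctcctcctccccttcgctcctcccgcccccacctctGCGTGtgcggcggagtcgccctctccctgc
ADAMTS6: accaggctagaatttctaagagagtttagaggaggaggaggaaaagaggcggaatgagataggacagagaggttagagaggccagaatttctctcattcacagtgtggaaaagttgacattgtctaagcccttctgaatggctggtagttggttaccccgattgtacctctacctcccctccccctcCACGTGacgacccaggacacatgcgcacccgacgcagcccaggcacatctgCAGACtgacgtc
ADAMTS12: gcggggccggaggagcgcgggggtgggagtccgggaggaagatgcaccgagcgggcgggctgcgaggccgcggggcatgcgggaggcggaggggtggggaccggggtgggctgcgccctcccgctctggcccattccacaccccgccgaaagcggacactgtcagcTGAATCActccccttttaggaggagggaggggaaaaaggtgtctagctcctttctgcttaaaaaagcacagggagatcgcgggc
ADAM12 and ADAMTS3 each held 2 core matches for the hypoxia-inducible factors and 1 SMAD box. In ADAM12 the second core and the SMAD box shared letters. ADAMTS6 held 1 SMAD box and the palindrome CACGTG, which counts as a core on both strands. ADAMTS12 held the AP-1 match TGAATCA, from 84 to 78 bases before its start, and neither of the others. Among 35116 promoter windows of this length, 43.2% held a hypoxia-inducible factor core, 38.0% a SMAD box and 6.57% an AP-1 match. A match describes letters only, and the motifs were chosen after the expression values had been seen.

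Every expression value below is a log2 signal whose probe set has a median of 0 across the 12 arrays. Differences between groups can therefore be read, but absolute levels cannot, and no level of 1 gene can be set against that of another. A gene's value is the mean over its probe sets. Changes are given with ± their standard error (SE) from limma, n = 3 arrays per group, and are called at an adjusted p under 0.05 over all genes. The number of arrays limits the precision. Because the values are centred, the fibroblast label could not be checked by level. The mean of 10 fibroblast markers was 0.37 to 0.47 on the young arrays at 20% oxygen and -0.15 to 0.01 on the other 9, and 6 of the 10 markers fell in senescence at 20% oxygen. That of 8 smooth muscle and pericyte markers was 0.18 to 0.31 and -0.20 to 0.11 (3 of 8 lower). Their part in the results below was not tested. Of 8 endothelial, 8 epithelial and 5 immune markers, none was called in that comparison, where 12.5% of all genes were called and 7.84% were called lower. In these bulk samples fewer cells of a type and less RNA per cell cannot be told apart. RNA quality was read from the ACTB controls, as the signal at the 3′ end minus that at the 5′ end, which stood at 0.71 (log2) on young replicate 2 at 3% oxygen and at -0.22 to 0.35 on the other arrays.

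**Figure D1:**
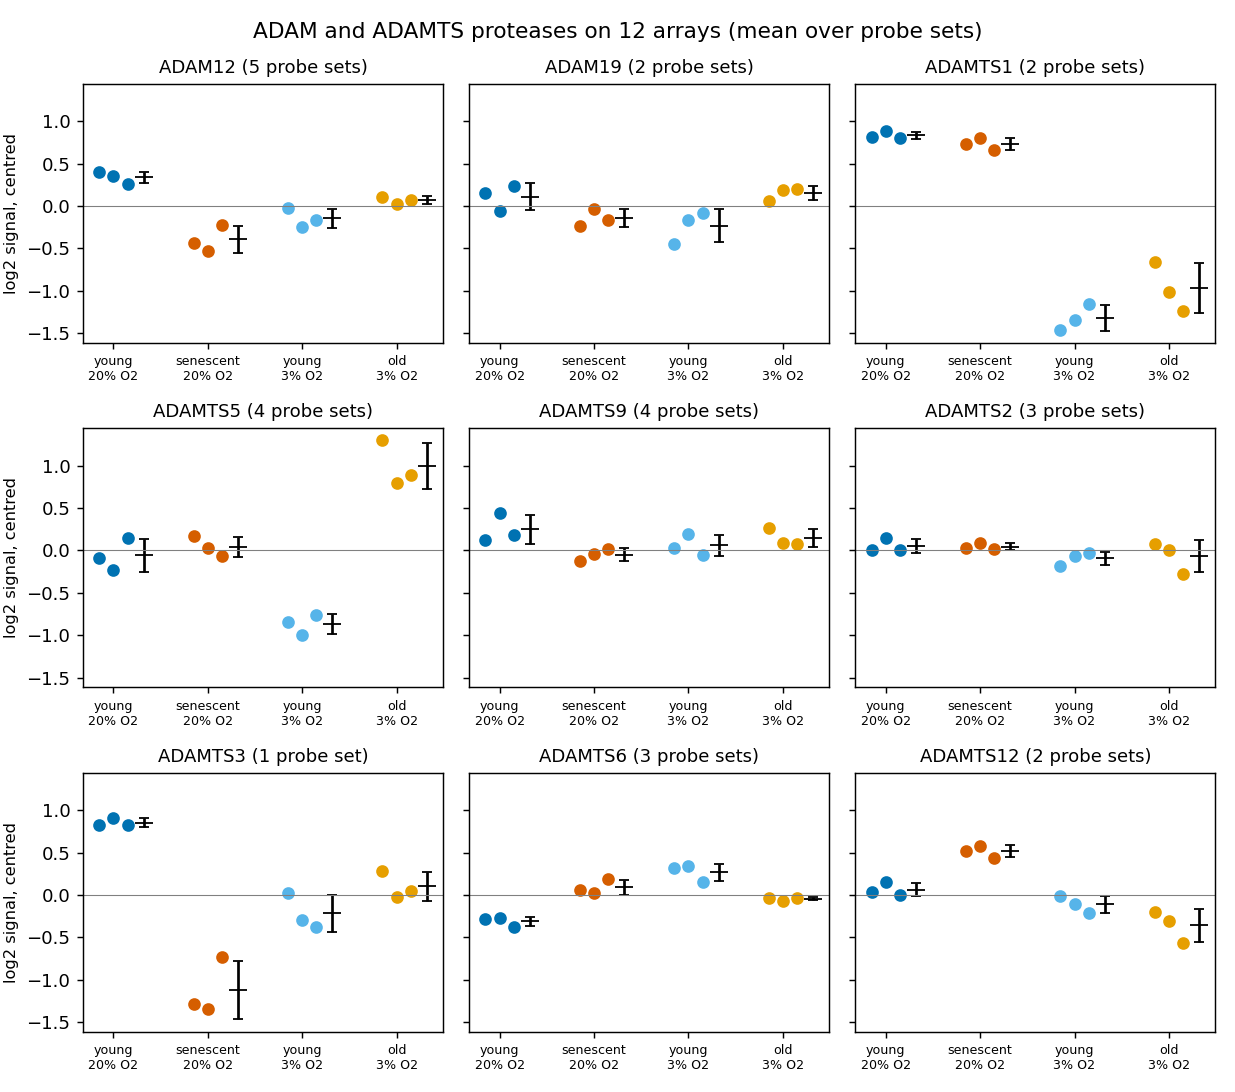
Centred log2 signal of the 9 genes (mean over their probe sets) on each of 12 arrays; points are arrays, and the black bar beside each group is its mean with the SD (n = 3). ADAMTS1 separates by oxygen level, ADAMTS5 is highest in old and lowest in young cells at 3% oxygen, and ADAMTS3 is highest in young and lowest in senescent cells at 20% oxygen.

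The first question was what changed when cells became senescent at 20% oxygen. Senescent cells were at doubling 48 and young cells at 30, so senescence and doubling number cannot be told apart there. Of the 9 members, ADAM12 and ADAMTS3 fell and ADAMTS6 and ADAMTS12 rose. These 4 of 9 compare with 12.5% of all genes called, and the 2 that fell and the 2 that rose with 7.84% and 4.67% of all genes. With the flatter 50% of genes left out of the fit, 21.2% of the rest were called, and the same count of 4 members. The median change of the 9 was -0.10, and that of all genes 0.04. With passage at 3% oxygen 1 of 9 was called, ADAMTS5, which rose, where 1.74% of all genes were called and 0.981% were called higher (median 0.21, all genes 0.05). No member was called lower there, where 0.759% of all genes were.

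Young cells grown at 3% differed from those grown at 20% in 5 of 9 members, where 11.8% of all genes were called. ADAM12, ADAMTS1, ADAMTS3 and ADAMTS5 were lower at 3% (4 of 9, against 6.84% of all genes) and ADAMTS6 was higher (1 of 9, against 4.96%), with a median of -0.34 and of -0.03 for all genes. In the late cells, 5 of 9 differed between old cells at 3% and the senescent ones, where 11.0% of all genes were called. ADAM12, ADAMTS3 and ADAMTS5 were higher in the old cells (3 of 9, against 6.59%) and ADAMTS1 and ADAMTS12 lower (2 of 9, against 4.41%), with a median of 0.19 and of -0.02 for all genes. Both crossed comparisons called 4 of 9. Senescent cells exceeded young cells at 3% in ADAMTS1, ADAMTS5 and ADAMTS12 (5.20% of all genes) and were below them in ADAMTS3 (5.70%), where 10.9% of all genes were called. Old cells at 3% exceeded young cells at 20% in ADAMTS5 (6.46%) and were below them in ADAMTS1, ADAMTS3 and ADAMTS12 (6.80%), where 13.3% of all genes were called.

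The 3 arrays of one group stood wholly above or below those of the other for 5 of 9 members in senescence (29.3% of all genes), 4 with passage at 3% (15.6%), 8 between young cells at the oxygen levels (29.7%) and 8 between the late groups (24.3%). In the crossed comparisons they did so for 5 (27.2%) and 6 (26.6%). By probe set, 8 of 26 were called in senescence (11.4% of all probe sets), 4 with passage at 3% (1.28%), 10 between young cells (10.5%), 11 between late cells (9.58%), and 9 in each crossed comparison (9.78% and 11.9%). The comparisons share groups, so their calls are not independent. The members were picked with earlier results of these data known, so their share against that of all genes is a description.

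**Figure D2:**
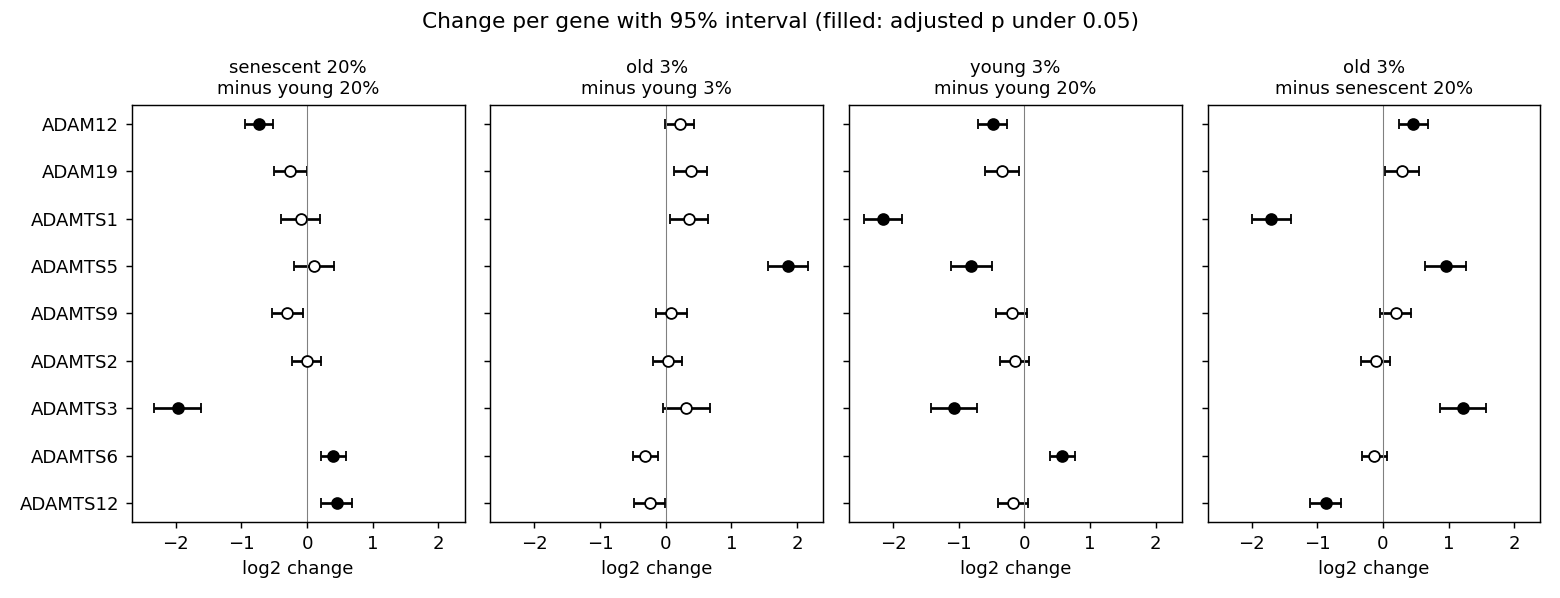
Log2 change of each gene in 4 comparisons, with its 95% interval from limma (3 arrays per group); filled points have an adjusted p under 0.05 over all genes. ADAMTS3 and ADAM12 fall and ADAMTS6 and ADAMTS12 rise in senescent cells, while ADAMTS5 alone is filled between old and young cells at 3% oxygen.

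ADAM12, a membrane sheddase also known as meltrin alpha, was highest in young cells at 20% oxygen. Its 3 arrays there read 0.40, 0.35 and 0.26. Senescent cells read -0.43, -0.53 and -0.22. At 3% oxygen young cells read -0.02, -0.24 and -0.17, and old cells 0.11, 0.02 and 0.07. Young cells at 20% oxygen thus overlapped with no other group, and senescent cells were the lowest, overlapping with young cells at 3%. The fall in senescence was -0.73 ± 0.10 (1.66-fold lower, adjusted p = 3.69e-04), and the difference between young cells at 3% and 20% was -0.48 ± 0.10 (1.40-fold lower, adjusted p = 0.00645). Old cells at 3% exceeded senescent cells by 0.46 ± 0.10 (adjusted p = 0.00914).

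The 5 probe sets of ADAM12 did not move alike. Probe sets 213790_at (-1.65 ± 0.19), 226777_at (-1.20 ± 0.20) and 202952_s_at (-0.85 ± 0.23) fell in senescence, whereas 204943_at (0.09) and 215613_at (-0.05) were not called. The gene mean therefore understates the fall read by the first 3. On 213790_at senescent arrays read -0.96, -1.40 and -1.16 against 0.60, 0.46 and 0.36 in young cells at 20%, a gap of over 1 log2 unit with no overlap. The call on 202952_s_at ended when any of 4 single arrays was left out (adjusted p up to 0.124). Since levels cannot be read, whether the flat probe sets were above background was not tested. The array annotation names different transcript records for 202952_s_at and 204943_at, and whether they read different transcripts was not tested either.

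ADAM19, the related sheddase meltrin beta, moved little. Its means were 0.11 ± 0.15 and -0.14 ± 0.10 in young and senescent cells at 20% oxygen, and -0.23 ± 0.19 and 0.15 ± 0.08 in young and old cells at 3% (SD, n = 3). No comparison between 2 groups was called on the gene mean, and no neighbours in the order of the group levels differed beyond their spread. Its probe set 209765_at did fall in senescence (-0.40 ± 0.09, adjusted p = 0.0129), from 0.02 to 0.16 on the young arrays to -0.33 to -0.28, while 221128_at gave -0.10. That call was lost without any of 3 single arrays (adjusted p up to 0.0597). On 209765_at old cells at 3% also exceeded senescent cells (0.39 ± 0.09, adjusted p = 0.0178). This difference was not called without any single senescent array or without old replicate 1 or 2 (adjusted p up to 0.0683). Nor was it called with only the 2 groups fitted (adjusted p = 0.0611).

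ADAMTS1, a secreted protease that cuts versican and aggrecan, followed the oxygen level. At 20% oxygen it read 0.81, 0.88 and 0.80 on the young and 0.73, 0.81 and 0.66 on the senescent arrays. At 3% oxygen it read -1.46, -1.34 and -1.15 on the young and -0.66, -1.01 and -1.24 on the old arrays. All 6 arrays at 20% thus stood above all 6 at 3%, and within each oxygen level the groups overlapped. Young cells were 4.43-fold lower at 3% than at 20% (-2.15 ± 0.13, adjusted p = 3.90e-07). Old cells at 3% were 3.25-fold lower than senescent cells at 20% (-1.70 ± 0.13, adjusted p = 2.39e-06). No change with senescence was called (-0.10, 95% interval -0.39 to 0.19), nor any between old and young cells at 3% (0.35, 95% interval 0.06 to 0.64, adjusted p = 0.287). Both probe sets moved alike: 222162_s_at gave -1.86 and 222486_s_at -2.44 between young cells at the 2 oxygen levels.

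ADAMTS5, the main aggrecan-cutting enzyme of cartilage and another versican protease, behaved otherwise at 3% oxygen. Young cells there read -0.84, -0.99 and -0.76, and old cells 1.30, 0.80 and 0.89. At 20% oxygen young cells read -0.09, -0.23 and 0.15 and senescent cells 0.17, 0.03 and -0.07. Young and old cells at 3% were thus the lowest and the highest group, with both groups at 20% overlapping between them. The rise from young to old cells at 3% was 1.86 ± 0.14 (3.63-fold, adjusted p = 1.88e-05), against a senescence change of 0.10 (95% interval -0.21 to 0.41) at 20%. Young cells were lower at 3% than at 20% by -0.81 ± 0.14 (1.75-fold lower, adjusted p = 0.00208), while old cells at 3% exceeded senescent cells by 0.95 ± 0.14 (1.94-fold, adjusted p = 6.10e-04). The group at 3% was thus the lower one among young cells and the higher one among late cells. The late groups also differ in senescence and in doubling number, so oxygen cannot be told apart from these there.

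Of the 4 probe sets of ADAMTS5, 3 carried this pattern. From young to old cells at 3% oxygen, 219935_at rose by 3.09 ± 0.28 (8.49-fold), 229357_at by 2.38 ± 0.13 (5.20-fold) and 235368_at by 2.09 ± 0.26 (4.26-fold). The fourth, 1558636_s_at, gave -0.11 and stayed between -0.20 and 0.40 on all 12 arrays. On 229357_at, the tightest of them, young cells at 3% read -1.33, -1.07 and -0.94, old cells 1.43, 1.18 and 1.19, and the 6 arrays at 20% between -0.28 and 0.09. On 235368_at the difference between young cells at 3% and 20% was not called (-0.73, adjusted p = 0.118).

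In the RefSeq gene table ADAMTS1 and ADAMTS5 lie next to each other on chromosome 21, with no other protein-coding gene between them. Their patterns had little in common: Pearson's r was 0.09 over the 12 arrays, a description, since the arrays fall into 4 groups. At 3% oxygen ADAMTS1 was low in both groups, whereas ADAMTS5 was low in young cells and high in old cells.

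**Figure D3:**
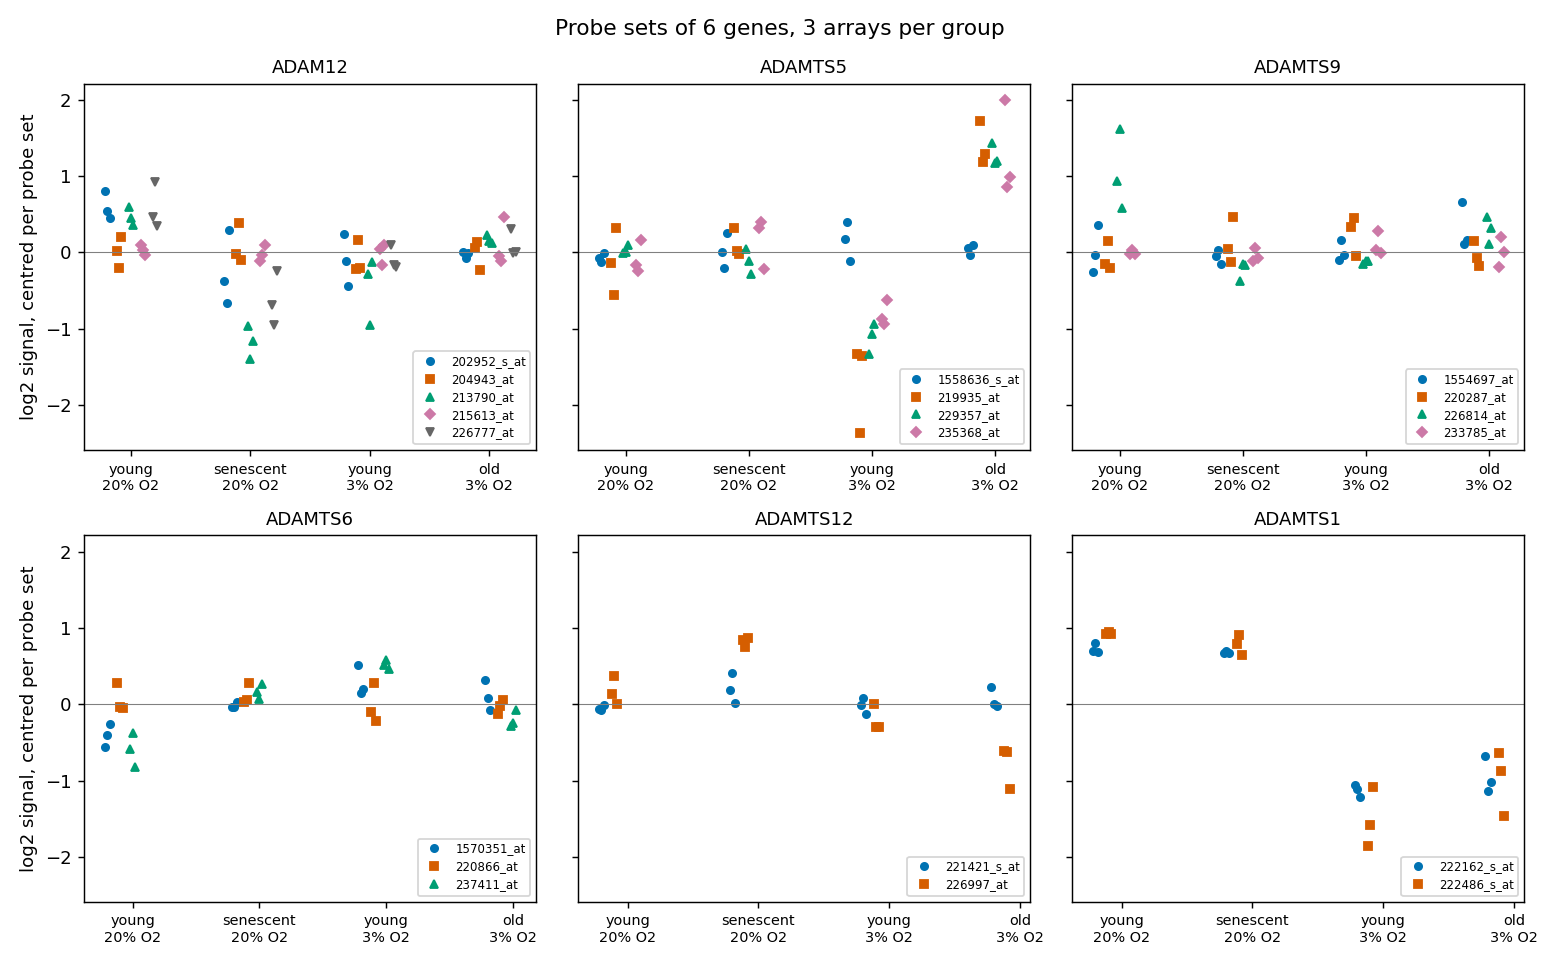
Centred log2 signal of each probe set of 6 genes on the 3 arrays of each group; colours and symbols tell the probe sets of a gene apart. For ADAMTS5, 3 of 4 probe sets move together and 1558636_s_at stays near 0; for ADAMTS9, 226814_at alone stands high in young cells at 20% oxygen.

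ADAMTS9, a versican and aggrecan protease found in many connective tissues, was not called on the gene mean in any comparison. Its means were 0.25 ± 0.17, -0.05 ± 0.07, 0.06 ± 0.13 and 0.15 ± 0.11 (SD, n = 3) in young and senescent cells at 20% and young and old cells at 3% oxygen. Its 4 probe sets disagreed. On 226814_at young cells at 20% read 0.94, 1.61 and 0.58, senescent cells -0.38, -0.15 and -0.16, young cells at 3% -0.15, -0.11 and -0.12, and old cells 0.46, 0.11 and 0.32. Young cells at 20% oxygen stood above all other arrays on this probe set. The fall in senescence was -1.27 ± 0.21 (2.42-fold lower, adjusted p = 0.00135 over all probe sets), and young cells at 3% were lower by -1.17 ± 0.21 (adjusted p = 0.00255). The other 3 gave -0.08, 0.19 and -0.04 in senescence, and none of them was called. Between old and senescent cells 226814_at gave 0.53, not called (adjusted p = 0.171), and called with the replicate number as a block in those 2 groups (adjusted p = 0.0483).

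ADAMTS2, which removes the N-terminal propeptide of fibrillar procollagens, was flat over the groups on the gene mean. Its means ran from -0.09 to 0.05, and no comparison was called. The senescence change was -0.01 with a 95% interval from -0.23 to 0.22, and the change from young to old cells at 3% oxygen was 0.03 with an interval from -0.19 to 0.25. Of its 3 probe sets, 214454_at was lower in old cells at 3% than in senescent cells (-0.47 ± 0.12, adjusted p = 0.0306). This call was lost without any of 6 single arrays (adjusted p up to 0.104) and with the replicate number as a block in those 2 groups (adjusted p = 0.0533). On 214454_at senescent cells also exceeded young cells at 3% (0.45 ± 0.12, adjusted p = 0.0401). That call was lost without any single array of the senescent group or of either young group (adjusted p 0.0555 to 0.147). It was also lost with quantile normalization (adjusted p = 0.0578), a replicate block over all arrays (adjusted p = 0.0581) and only the 2 groups fitted (adjusted p = 0.0759). The senescent arrays of 214454_at read 0.18, 0.34 and 0.29, above all other arrays.

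ADAMTS3, a relative of ADAMTS2 that activates the lymphatic growth factor VEGFC and cuts reelin, had the largest change of the 9 in senescence. It is read by a single probe set, so no second reading bears on it. Young cells at 20% oxygen read 0.82, 0.91 and 0.82, and senescent cells -1.28, -1.35 and -0.73. At 3% oxygen young cells read 0.03, -0.30 and -0.38, and old cells 0.29, -0.03 and 0.04. The young cells at 20% and the senescent cells were thus the 2 ends, each apart from the other 3 groups, with both groups at 3% overlapping between them. The fall in senescence was -1.97 ± 0.16 (3.93-fold lower, adjusted p = 5.88e-06). Between young and old cells at 3% no change was called (0.32, 95% interval -0.04 to 0.67). Young cells at 3% were 2.10-fold lower than at 20% (-1.07 ± 0.16, adjusted p = 7.03e-04), and old cells at 3% were 2.33-fold higher than senescent cells (1.22 ± 0.16, adjusted p = 2.34e-04).

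ADAMTS6, an enzyme that acts on fibrillin-rich matrix, was lowest in young cells at 20% oxygen. Young cells at 20% oxygen read -0.29, -0.27 and -0.38, below all 9 other arrays. Senescent cells read 0.05, 0.03 and 0.19, young cells at 3% 0.31, 0.34 and 0.15, and old cells -0.03, -0.07 and -0.03. The rise in senescence was 0.40 ± 0.09 (1.32-fold, adjusted p = 0.00821), and young cells at 3% exceeded those at 20% by 0.58 ± 0.09 (1.49-fold, adjusted p = 7.07e-04). Probe set 237411_at gave 0.76 and 1.11 for these changes and 1570351_at 0.39 and 0.69, the former not called, while 220866_at gave 0.05 and -0.08. On 237411_at old cells were also lower than young cells at 3% (-0.72 ± 0.12, adjusted p = 0.0123), a change not called on the gene mean (-0.31, adjusted p = 0.123) and lost without any of 3 single arrays.

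ADAMTS12, which cuts cartilage oligomeric matrix protein, was highest in senescent cells. They read 0.52, 0.58 and 0.44, above all other arrays. Young cells at 20% oxygen read 0.04, 0.15 and -0.002, young cells at 3% -0.01, -0.11 and -0.22, and old cells -0.20, -0.31 and -0.57. The rise in senescence was 0.45 ± 0.11 (1.37-fold, adjusted p = 0.0141), and it was not called without young replicate 1 (0.44, adjusted p = 0.0580) or 3 (0.42, adjusted p = 0.0573) at 20% oxygen or senescent replicate 2 (0.42, adjusted p = 0.0561). Old cells at 3% were also lower than young cells at 20% (-0.42 ± 0.11, adjusted p = 0.0197). That call was lost without young replicate 1 (adjusted p = 0.0582) or 2 (adjusted p = 0.0890) at 20% or old replicate 3 (adjusted p = 0.0744), and with only the 2 groups fitted (adjusted p = 0.0551). Old cells at 3% were 1.83-fold lower than senescent cells (-0.87 ± 0.11, adjusted p = 1.30e-04). On probe set 226997_at that difference was -1.61 ± 0.15 (3.04-fold lower), and on 221421_s_at it was -0.14 and not called. The rise in senescence was likewise called on 226997_at alone (0.65 ± 0.15, adjusted p = 0.0146). It was not called without young replicate 1 or 3 at 20%, or senescent replicate 1 or 3 (adjusted p up to 0.0652). In senescence 221421_s_at gave 0.25 (adjusted p = 0.284). Between old cells at 3% and young cells at 20% the signs differed: -0.95 on 226997_at, called, and 0.12 on 221421_s_at, not called.

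The design also allows the test of whether the change with passage differed between the oxygen levels. It compares senescent minus young cells at 20% with old minus young cells at 3%. Oxygen level, arrival at senescence and the number of doublings passed cannot be told apart in it. Of the 9 members 6 were called, where 6.44% of all genes were: 4 with a lower change at 20% (4.37% of all genes) and 2 with a higher one (2.06%). The change at 20% was the lower one for ADAMTS3 (by -2.29 ± 0.23, adjusted p = 6.60e-05), ADAMTS5 (-1.76 ± 0.20, adjusted p = 1.84e-04), ADAM12 (-0.94 ± 0.14, adjusted p = 0.00150) and ADAM19 (-0.63 ± 0.17, adjusted p = 0.0405). It was the higher one for ADAMTS6 (0.71 ± 0.12, adjusted p = 0.00390) and ADAMTS12 (0.70 ± 0.15, adjusted p = 0.0157). ADAMTS3 reached its difference through a fall at 20%, and ADAMTS5 through a rise at 3%. The call for ADAM19 ended without any of 9 of the 12 single arrays (adjusted p up to 0.105). By probe set, 10 of 26 were called, where 6.02% of all probe sets were, and these included 226814_at of ADAMTS9 (-1.69 ± 0.29, adjusted p = 0.00413).

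**Figure D4:**
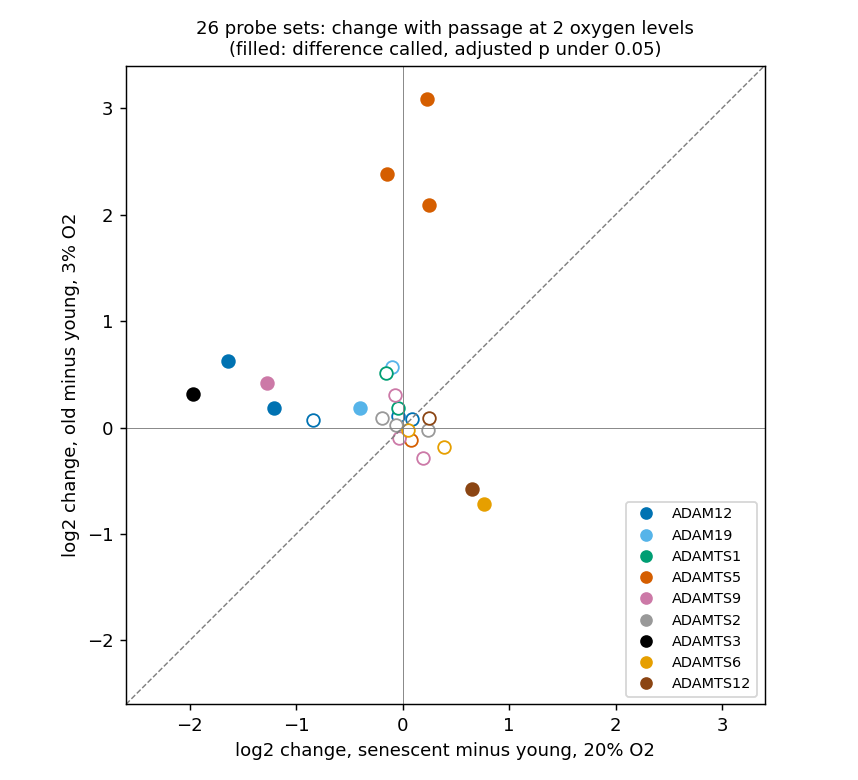
Log2 change of the 26 probe sets from young to senescent cells at 20% oxygen (x axis) and from young to old cells at 3% (y axis); the dashed line marks equal changes, and filled points have an adjusted p under 0.05 for the difference between the changes. The 3 filled ADAMTS5 points lie high at 3.09, 2.38 and 2.09 with x values between -0.15 and 0.25, and ADAMTS3 lies far left at -1.97.

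Genes whose pattern over the 12 arrays was most like that of a member were ranked by Pearson's r on gene means, as a description. For ADAMTS3 the nearest were SHISA3 (r = 0.98), ADAM12 (r = 0.98) and PLEKHH1 (r = 0.97), and for ADAM12 they were ADAMTS3, SHISA3 (r = 0.97) and PDGFRA (r = 0.96). ADAM12 and ADAMTS3, on chromosomes 10 and 4, were thus among each other's nearest patterns of all genes measured. For ADAMTS1 the nearest were FAM8A1, ABAT and ARSJ (r = 0.99 or above), and for ADAMTS5 TCIM (r = 0.96), OGFRL1 (r = 0.95) and HTR7P1 (r = 0.93). For ADAMTS6 they were GSDME (r = 0.96), ARL11 (r = 0.95) and SMYD2 (r = 0.94), for ADAMTS12 PRPS1 (r = 0.97), NFXL1 (r = 0.96) and AIG1 (r = 0.96), and for ADAM19 CCDC125 (r = 0.91), RAB43 (r = 0.91) and GJA1 (r = 0.90). The arrays share 4 groups, so few independent points stand behind each r.

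In senescence 7.84% of all genes were called lower and 4.67% higher, and the counts in the short gene lists below were not tested against these shares. Among the relatives of these genes, ADAMTS8 stood out. This ADAMTS protease read 2.38 to 2.41 in young cells at 20% oxygen and -0.82 to 0.44 on the other 9 arrays. It fell in senescence by -2.35 ± 0.21 (adjusted p = 1.14e-05), with -4.46 to -0.76 over its 3 probe sets. Of 11 other ADAMTS proteases it was the only one called in senescence, and of 11 other ADAM proteases ADAM10, a widely used sheddase, alone rose (0.48 ± 0.13, adjusted p = 0.0270). The call for ADAM10 was lost without any of 5 single arrays (adjusted p up to 0.102). Of 6 measured ADAM proteins without protease activity none was called in senescence, and ADAM23, an adhesion protein, was lower in young cells at 3% than at 20% (-0.98 ± 0.13, adjusted p = 3.15e-04; -1.85 to 0.23 over its 4 probe sets). Of 7 ADAMTS-like proteins, which lack the catalytic domain, 1 rose in senescence, ADAMTSL1 (0.30 ± 0.09, adjusted p = 0.0370), a call lost without any of 8 single arrays. The 6 probe sets of ADAMTSL1 gave -0.08 to 1.12.

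Of 7 inhibitors and clearance proteins, A2M (0.70), RECK (0.42) and TIMP2 (0.40) rose and TIMP3 fell in senescence. Of all genes 4.67% were called higher there and 7.84% lower. Probe sets disagreed for A2M (-0.02 to 1.41) and RECK (-0.11 to 0.98), while those of TIMP2 gave 0.15 to 0.82. The call for TIMP2 was lost without either of 2 single arrays (adjusted p up to 0.0723). TIMP3, the inhibitor that acts most broadly on ADAM and ADAMTS enzymes, fell by -0.55 ± 0.09 (adjusted p = 0.00143) and was also lower in old than in young cells at 3% (-0.69 ± 0.09, adjusted p = 0.00153). It read 0.19 to 0.51 on the 6 young arrays and -0.33 to -0.15 on the 6 late ones, with all 4 probe sets falling in both comparisons by their estimates. TIMP1 was lower in young cells at 3% than at 20% (-0.88 ± 0.09, adjusted p = 2.11e-05). Of the 4 convertases that remove the propeptides of these enzymes, PCSK5 (-0.83 ± 0.11, adjusted p = 2.88e-04) and PCSK7 (-0.75 ± 0.11, adjusted p = 4.86e-04) fell in senescence, and both were also lower in young cells at 3% than at 20%. The 3 probe sets of PCSK5 gave -1.86 to -0.16 in senescence.

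Substrates moved both ways. Versican (VCAN), a proteoglycan of loose connective tissue, fell in senescence by -0.52 ± 0.10 (adjusted p = 0.00294) and was higher in old than in young cells at 3% by 0.57 ± 0.10 (adjusted p = 0.00823). It read -0.92 to -0.70 in senescent cells, -0.30 to -0.28 in young cells at 20%, 0.22 to 0.46 in young cells at 3% and 0.79 to 0.99 in old cells, and no groups overlapped. Of 9 proteoglycan and matrix substrates versican and fibrillin-2 (FBN2, -1.02 ± 0.16, adjusted p = 0.00103) fell in senescence and none rose. The 3 probe sets of FBN2 gave -1.99 to 0.05. Of 9 procollagens and processing genes, PCOLCE, an enhancer of procollagen C-proteinases (-0.73 ± 0.13, adjusted p = 0.00269), and the collagen gene COL3A1 (-0.55 ± 0.12, adjusted p = 0.00721) fell and none rose. Of all genes 7.84% were called lower in senescence and 4.67% higher. Next to ADAMTS3, its cofactor CCBE1 rose in senescence by 1.28 ± 0.12 (adjusted p = 2.00e-05) and its substrate reelin (RELN) by 1.11 ± 0.08 (adjusted p = 2.32e-06). VEGFC fell (-0.40 ± 0.09, adjusted p = 0.0133), a call lost without any of 3 single arrays (adjusted p up to 0.0685). In old against young cells at 3% CCBE1 (-0.77 ± 0.12, adjusted p = 0.00564) and RELN (-2.10 ± 0.08, adjusted p = 4.15e-08) fell. ADAMTS3 thus fell in senescence while CCBE1 and RELN rose in the same cells.

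Among 8 measured shed ligands and binding proteins, 1 rose and 2 fell in senescence, where 4.67% of all genes were called higher and 7.84% lower. IGFBP3, an insulin-like growth factor binding protein that ADAM12 can cut, rose by 1.15 ± 0.09 (adjusted p = 4.47e-06), from -1.20 to -0.92 on the young arrays to 0.08 to 0.15 on the senescent ones. EGF fell by -1.08 ± 0.23 (adjusted p = 0.00686). HBEGF, a membrane-anchored EGF receptor ligand, fell by -1.11 ± 0.09 (adjusted p = 4.74e-06), with -2.43 to 0.05 over its 4 probe sets. Between young cells, IGFBP5, a related substrate of ADAM12, was lower at 3% than at 20% (-1.32 ± 0.14, adjusted p = 2.71e-05), while IGFBP3 was higher (1.39 ± 0.09, adjusted p = 5.75e-07). Of 5 partners of other sheddases, RHBDF2 (0.72 ± 0.13, adjusted p = 0.00310) and TSPAN14 (0.49 ± 0.10, adjusted p = 0.00640) rose in senescence.

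Other listed genes differed between young cells at 3% and 20% oxygen. ADAMTS8 (-2.77), HBEGF (-1.36), A2M (-0.72), PCOLCE (-0.51), EGF (-0.84), biglycan (BGN, -0.62) and ADAMTS19 (-0.31) were lower at 3%, and CCBE1 (0.85), VCAN (0.61), ADAMTS15 (0.52) and COL5A2 (0.38) were higher. The call for ADAMTS19 was lost without any of the 12 single arrays, and those for BGN and EGF without any of 4, for PCOLCE and COL5A2 without any of 3, and for ADAMTS15 without either of 2. The 2 probe sets of ADAMTS15 gave -0.25 and 1.28. With passage at 3%, BGN (-0.82), FN1, the fibronectin gene (-0.44), and IGFBP3 (-0.42) fell. Those calls were lost without any of 4, 5 and 10 single arrays. The 7 probe sets of FN1 gave -0.98 to 0.03.

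Between the late groups, old cells at 3% were above senescent cells in VCAN (1.71), COL3A1 (0.61) and COL5A2 (0.47). They were below them in RELN (-3.04), IGFBP5 (-1.46), BGN (-1.41), ADAM23 (-1.28), A2M (-1.20), CCBE1 (-1.20), FN1 (-0.83), RHBDF2 (-0.62), RECK (-0.49), TIMP1 (-0.48), HBEGF (-0.48) and PCSK5 (-0.39). The call for PCSK5 was lost without any of 7 single arrays (adjusted p up to 0.151). Probe sets differed in sign for A2M (-2.45 to 0.05), HBEGF (-1.03 to 0.08) and RECK (-0.97 to 0.01).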

How the data were processed

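The deposited values come from RMA, per the submitters' processing notes, which give no version. The authors' deposited log2 values (base 2 assumed from RMA) hold 54675 probe sets, each with a median of 0 over the 12 arrays within 1e-06; centring is not stated in the notes and was read from the values. Absolute levels, and so a filter on dim genes, could not be used; flat genes were filtered instead. Of 41091 probe sets naming 1 gene, 41037 matched a current symbol by Entrez identifier, and their mean per gene gave 19775 genes. Probe sets naming several genes (1801) or none (11721) were left out.

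A limma model (version 3.58.1, under R 4.3.3; lmFit and eBayes) estimated 1 mean per group from the 12 arrays together (two-sided; Benjamini-Hochberg over all genes, or over all probe sets, within a comparison). The fit was tested on simulated data. All members were named, with the 3 nearest patterns per called member and, of each list, up to 4 called genes by size; the rule covers every comparison, but list genes are printed only for the 4 comparisons that differ in passage or in oxygen alone or set old against senescent cells. The members and lists were chosen with earlier results of these data known. Only between the senescent and old groups were the deviations of all 3 same-numbered replicates positively correlated (0.129, 0.519 and 0.669). A single value reached 0.43 between the young groups. Whether replicates were paired was not tested, and the labels do not say what the numbers mean. Alternatives were robust eBayes, other collapses, normalizations, thresholds, samples, weights, a replicate block and leaving out each array. RNA quality as a covariate and a block in those 2 groups alone were chosen after seeing the data.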

Additional observations from a re-analysis of the deposited data

Results flagged for a closer look

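The passage change at 20% oxygen (senescent minus young) differed from that at 3% (old minus young) by limma's interaction test for 6 genes and 10 probe sets. The differences were -2.29 for ADAMTS3, -1.76 for ADAMTS5, -0.94 for ADAM12, -0.63 for ADAM19, 0.71 for ADAMTS6 and 0.70 for ADAMTS12. By probe set, they were -2.27 on 213790_at and -1.39 on 226777_at of ADAM12, and -0.59 on 209765_at of ADAM19. ADAMTS12 gave 1.23 on 226997_at, and ADAMTS3 -2.29 on its only probe set. ADAMTS5 gave -2.85 on 219935_at, -2.53 on 229357_at and -1.85 on 235368_at. ADAMTS6 gave 1.48 on 237411_at, and ADAMTS9 -1.69 on 226814_at. Groups of 3 arrays are too small for the check on single samples far from the others.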

How the results depend on the processing

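No member changed direction in a called result under any alternative run: of 1491 values of member genes, 1436 kept their side of the threshold, 41 lost a call and 14 gained one. With a minimum absolute log2 change of 1, the members called were 1 in senescent against young cells at 20% oxygen (ADAMTS3), 2 in young cells at 3% against 20%, 2 in old against senescent cells, 1 in senescent cells against young cells at 3%, 2 in old cells against young cells at 20%, and 2 for the interaction. In old against young cells at 3%, 2 were called in place of 1 with the largest-SD probe set per gene and also without collapse of probe sets, since ADAMTS6 was then lower. With the largest-SD probe set, ADAMTS9 fell in senescence (-1.27, adjusted p = 0.00122). Leaving out each array in turn moved no count of members called by over 1.5 times. With the replicate number as a block the members called were 4, 1, 5 and 5 in the first 4 comparisons of the report, as without it. The block in senescent and old arrays alone called 5, and neither block changed a call of a member gene. Among probe sets, the block over all arrays ended calls on 226777_at, 214454_at and 226814_at (adjusted p 0.0505 to 0.0872). With array quality weights the count of all genes called rose from 2474 to 6203 in senescence, from 2176 to 4137 between the late groups, from 2622 to 5167 between old cells and young cells at 20%, and from 1273 to 2684 for the interaction. With passage at 3% it was 344, and between 187 and 423 when single 3% arrays were left out (lowest without old replicate 2, highest without old replicate 3; 200 without old replicate 1, 228 and 227 without young replicates 1 and 2), and 223 without _s_at and _x_at probe sets. With flat genes left out the share called was 21.2% in senescence, 2.87% with passage at 3%, 21.4% between young cells, 19.2% between late cells, 19.7% and 23.7% in the crossed comparisons and 10.9% for the interaction, over 9888 genes. Outside the members, 2 called genes turned sign in senescent cells against young cells at 3%: FN1 with the largest-SD probe set (-0.0139) and NRG1 without _s_at and _x_at probe sets (-0.0948). Signal over background could not be read from centred values, which limits any reading of the flat probe sets.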
